A study of Mus musculus with 2 samples.

Results

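The genes described here are 9 that organise lymphoid tissue: the chemokines Cxcl13, Ccl19 and Ccl21a, the receptors Cxcr5 and Ccr7, the vascular adhesion gene Madcam1, and the lymphotoxin genes Lta, Ltb and Ltbr. They were taken by symbol from the feature tables, where 9 of 9 were found among 33696 genes, by a rule that names symbols only. The set was proposed with earlier results of these data known. The cells came from tumours of LLC, the Lewis lung carcinoma line of mice, and the labels call them infiltrating lymphocytes. The series holds 1 library from mice lacking Dusp2 (KO) and 1 library from wild-type mice (WT), both with the same tumour line. The labels do not state the strain, age, sex, number of animals per library, deleted stretch of Dusp2 or any sorting. The labels name polyA RNA for the KO library and total RNA for the WT library, although both protocols describe the same 10x 3′ kit.

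Dusp2, a phosphatase gene of activated lymphocytes, had 23 UMIs (2.03 CPM) in KO T cells, against 3356 UMIs (422 CPM) in WT T cells. Over all kept cells, chosen by the filter given next, it had 3018 UMIs (29.8 CPM) in KO and 15258 UMIs (134 CPM) in WT. A UMI is a molecular tag that counts 1 captured RNA molecule, and CPM is the count of a gene after all UMIs of a class are scaled to the same total. The KO library held 12744 barcodes and 101532711 UMIs, and the WT library 9890 barcodes and 113873249 UMIs. Filtering for 200 or more genes and for no more than 20% mitochondrial RNA left 12636 KO and 9765 WT cells with medians of 4796 and 8598 UMIs. The libraries shared 31 barcodes. Cells were placed in 11 lineages from raw UMIs of marker genes, none of which is among the 9, and 78.0% of KO and 83.8% of WT cells fell into a single lineage. The labelled lymphocytes were only some of the cells: macrophage markers placed 1761 KO and 4852 WT cells, and tumour markers 1231 KO and 1021 WT cells. B cells numbered 3405 in the KO library and 13 in the WT library, and plasma cells 396 and 0. With 1 library per genotype there was no test, the intervals below are 95% and cover counting error only, and genotype cannot be told apart from animal, tumour or library preparation.

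CXCL13 binds CXCR5 and draws B cells and follicular helper T cells into follicles, while CCL19 and CCL21 bind CCR7 and gather T cells and mature dendritic cells in the T zone. Lymphotoxin alpha and beta, made by lymphocytes, form a membrane complex that signals through the lymphotoxin beta receptor on stromal and myeloid cells. In lymphoid organs that signal runs partly through NF-kappa-B and maintains the stromal expression of these chemokines and of MAdCAM-1, the ligand of the gut-homing integrin. In tumours the same genes mark lymphoid aggregates known as tertiary lymphoid structures.

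The stretches of 150 bases before the start sites of 3 stromal and vascular genes are shown because these genes are known to respond to lymphotoxin signalling. The sequences are from RefSeq, build GRCm38.p6, and capitals mark a TATAAA box in Cxcl13 and NF-kappa-B consensus matches in Madcam1.
Cxcl13: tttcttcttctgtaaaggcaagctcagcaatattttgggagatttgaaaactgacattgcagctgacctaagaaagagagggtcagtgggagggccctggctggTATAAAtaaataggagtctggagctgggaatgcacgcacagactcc
Ccl21a: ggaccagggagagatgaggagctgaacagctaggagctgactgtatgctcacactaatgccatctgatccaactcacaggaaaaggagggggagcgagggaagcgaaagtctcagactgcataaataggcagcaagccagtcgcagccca
Madcam1: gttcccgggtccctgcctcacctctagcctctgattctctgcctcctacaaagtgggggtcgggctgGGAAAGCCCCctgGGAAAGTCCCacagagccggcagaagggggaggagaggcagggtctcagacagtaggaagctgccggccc
The Cxcl13 stretch lies at chr5:95956789-95956938 on the plus strand, and its TATAAA is at 46 to 41 bases before the start. The Madcam1 stretch lies at chr10:79664409-79664558 on the plus strand, with matches at 83 to 74 and at 70 to 61 bases before the start. The Ccl21a stretch at chr4:42773992-42774141, on the minus strand, held neither motif. No stretch is shown for Ccl19, because all of it, chr4:42756366-42756515, lies inside the GENCODE M21 span of the gene. The Ccl21a stretch overlaps the span of its gene only at chr4:42773992-42773993. Both strands were searched over 250 bases before the start, where Madcam1 had 1 more NF-kappa-B match at 191 to 182 bases. Among 32851 such windows, TATAAA occurred in 12.4% and the NF-kappa-B consensus in 9.55%, so neither is rare. Ltb had 1 NF-kappa-B match, Lta 1 match and 1 TATAAA, and Ltbr none of either. A match is a run of letters and not evidence that a factor binds there.

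By the GENCODE M21 annotation of GRCm38, Ltb (chr17:35194439-35196320, plus strand) and Lta (chr17:35203165-35205351, minus strand) flank Tnf, with which they form a cluster of cytokine genes. Ccl19 (chr4:42754525-42756577) and Ccl21a (chr4:42772860-42773993) are neighbours on the minus strand. The other members are Cxcl13 (chr5:95956951-95961068, plus), Cxcr5 (chr9:44511787-44561877, minus), Ccr7 (chr11:99144196-99155077, minus), Madcam1 (chr10:79664559-79668537, plus) and Ltbr (chr6:125306571-125313885, minus).

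The KO library held more RNA of the B-cell follicle pair. Over all kept cells Cxcl13 had 2028 UMIs (20.01 CPM) in KO and 134 UMIs (1.18 CPM) in WT, log2 KO over WT 4.08 (3.83 to 4.35). Cxcr5 had 2870 UMIs (28.3 CPM) in KO and 258 UMIs (2.27 CPM) in WT, log2 3.64 (3.46 to 3.83). Lymphotoxin ligands were higher in the KO library too: Lta had 537 UMIs in KO and 203 in WT, log2 1.57 (1.33 to 1.81), and Ltb 7351 and 3814, log2 1.11 (1.06 to 1.17). Ltbr, their receptor, was lower, with 1943 UMIs in KO and 3570 in WT, log2 -0.71 (-0.79 to -0.63).

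Ccr7 had 20399 UMIs in KO and 11971 in WT, log2 0.93 (0.90 to 0.97). Ccl21a had 1231 and 535 UMIs, log2 1.37 (1.22 to 1.52), and Ccl19 156 and 253, log2 -0.53 (-0.83 to -0.24). Madcam1 was sparse, 59 UMIs in KO and 3 in WT, log2 4.46 (2.85 to 6.78). At a threshold of 2-fold, 6 of 9 members were higher in the KO library (all but Ccl19, Ccr7 and Ltbr) and 0 were lower. Of the 19280 genes with at least 20 UMIs, 7.96% were at least 2-fold higher and 8.69% at least 2-fold lower. The 20 UMIs were summed over both libraries, and Madcam1, with 3 UMIs in WT, reached them only through KO. The count of members is therefore a description only. The cells differ in makeup, so each gene was then followed into its cell classes.

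**Figure D1:**
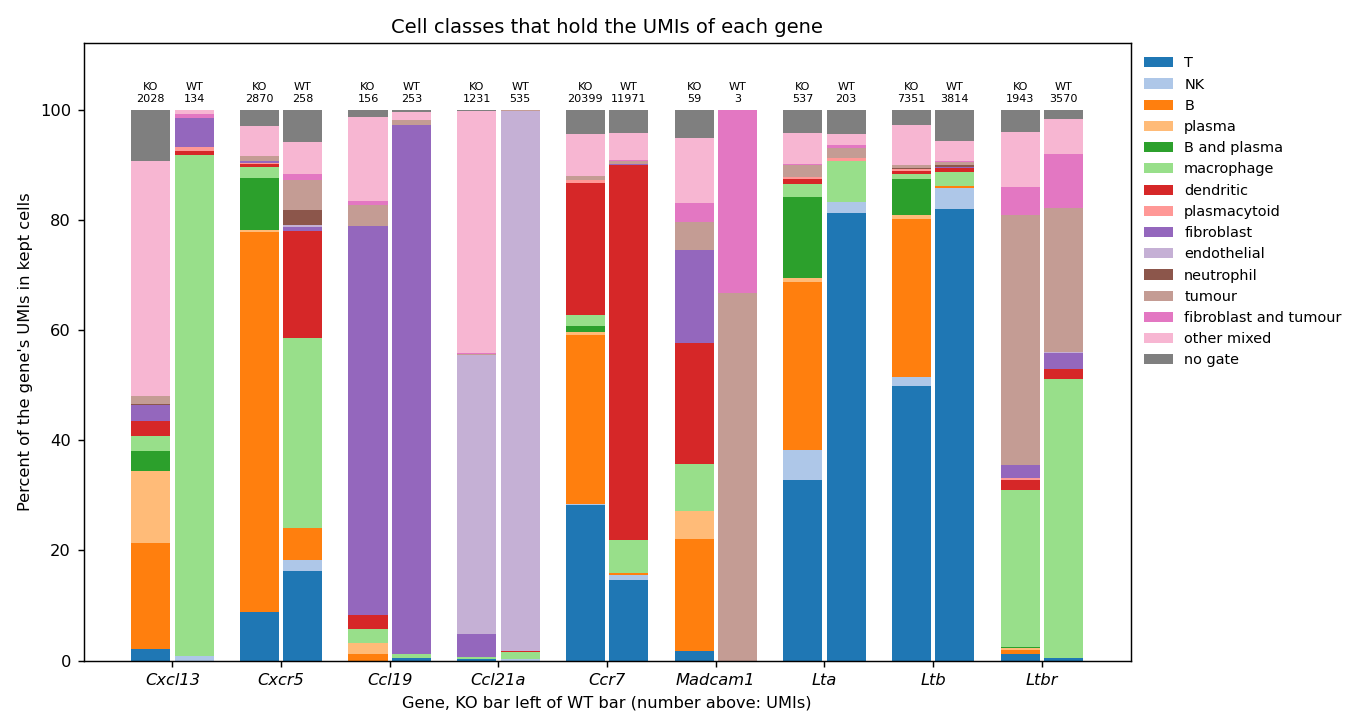
Stacked bars give the percent of each gene's UMIs (y axis) that lie in each cell class, KO bar left of WT bar, with the number of UMIs above. The T share of Ltb UMIs is 49.9% in KO and 81.9% in WT, and B cells hold 28.7% and 0.42%.

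The classes that held the receptor RNA differed between the libraries. Of the Cxcr5 UMIs, 68.9% lay in B cells in the KO library and 5.81% in the WT library. T cells held 8.75% in KO and 16.3% in WT, macrophages 1.99% and 34.5%, and dendritic cells 0.627% and 19.4%. Of the Ccr7 UMIs, dendritic cells held 24.0% in KO and 68.0% in WT, T cells 28.3% and 14.7%, and B cells 30.6% and 0.334%. Without the cells of the B, plasma and mixed B and plasma classes, the log2 ratio over the remaining cells was 1.90 (1.69 to 2.12) for Cxcr5, 1.09 (0.83 to 1.36) for Lta, 0.88 (0.82 to 0.94) for Ltb and 0.79 (0.75 to 0.82) for Ccr7. Each of the 4 was still above 0. The remaining cells still included mixed-lineage and ungated cells. Their B markers were at 544 and 300 CPM in KO and at 6.03 and 5.23 CPM in WT. They held 154 and 86 of the 610 remaining KO Cxcr5 UMIs. The part of B RNA in these ratios was not tested.

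Cxcl13, the B-cell attractant, sat in a few very rich cells. In the KO library 20 cells carried at least 20 UMIs each, from 24 to 291 UMIs with a median of 49, and together held 1715 of its 2028 UMIs (84.6%). In the WT library 2 cells did so, with 69 and 50 UMIs, 88.8% of the total. The next cell below had 19 UMIs in KO and 4 in WT. The single richest cell held 14.3% of the KO and 51.5% of the WT UMIs. The KO cells were spread over the gates, none of which is for follicular dendritic cells: 5 were in mixed lineages and held 815 UMIs, 4 passed as plasma, 3 as B, 3 had no lineage, 2 were B and plasma, and T, dendritic and fibroblast classes had 1 each. Both WT cells passed as macrophages.

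The genes found beside Cxcl13 also differed between the libraries. Of the 20 KO cells, 19 carried Vcam1, an adhesion molecule of stroma, 19 carried Clu, a secreted chaperone, and 19 carried Mfge8, a bridging protein for dying cells. Cr2, complement receptor 2 of B cells and follicular dendritic cells, was in 16 of 20 cells at 250 CPM, against 5.95% of the other KO cells at 10.1 CPM. Coch was in 14 cells at 169 CPM, against 0.277% of the other KO cells. Enpp2, the enzyme that makes lysophosphatidic acid, was in 12 and Madcam1 in 9. Most of these genes are known from follicular dendritic cells, the stroma of B-cell follicles. Of the stromal genes listed beforehand with Cr2, Cxcl12 was in 6 of the 20 cells at 59.9 CPM, against 9.598 CPM in the other KO cells. Pdpn was in 5 at 35.3 CPM, against 52.5 CPM, and Il7 was in 1. In the 2 WT cells Vcam1 was in 1 cell with 3 UMIs, and Clu, Mfge8, Cr2, Coch, Enpp2 and Madcam1 were at 0.

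The 2 WT cells carried 156 UMIs of C1qa, a complement gene of macrophages, and 14 of Csf1r, the macrophage growth factor receptor, whereas the 20 KO cells had 1 and 0. B and plasma RNA was also present in the KO cells, with Cd79a in 13, Jchain in 11 and the leukocyte gene Ptprc in 15. Of the other KO cells 44.9% had Cd79a. The tumour markers Rhox5 and Krt8 were in 50% and 40% of the 20 KO cells, against 19.7% and 15.9% of the other KO cells. Their levels were lower in the 20 cells, Rhox5 at 367 CPM against 396 CPM and Krt8 at 109 CPM against 184 CPM. Median depth was 11390.5 UMIs in the 20 cells and 4796 UMIs over all kept KO cells. The shares in the 20 KO cells were not matched for depth. The part of B, plasma and tumour RNA in these cells was not tested. Cr2, Cxcl12, Pdpn and Il7 were among the genes listed beforehand for follicular dendritic or reticular stroma. The other genes named here were looked up in these cells after the values were seen. Only 2 cells stand on the WT side, so the shares of the libraries cannot be compared closely.

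**Figure D2:**
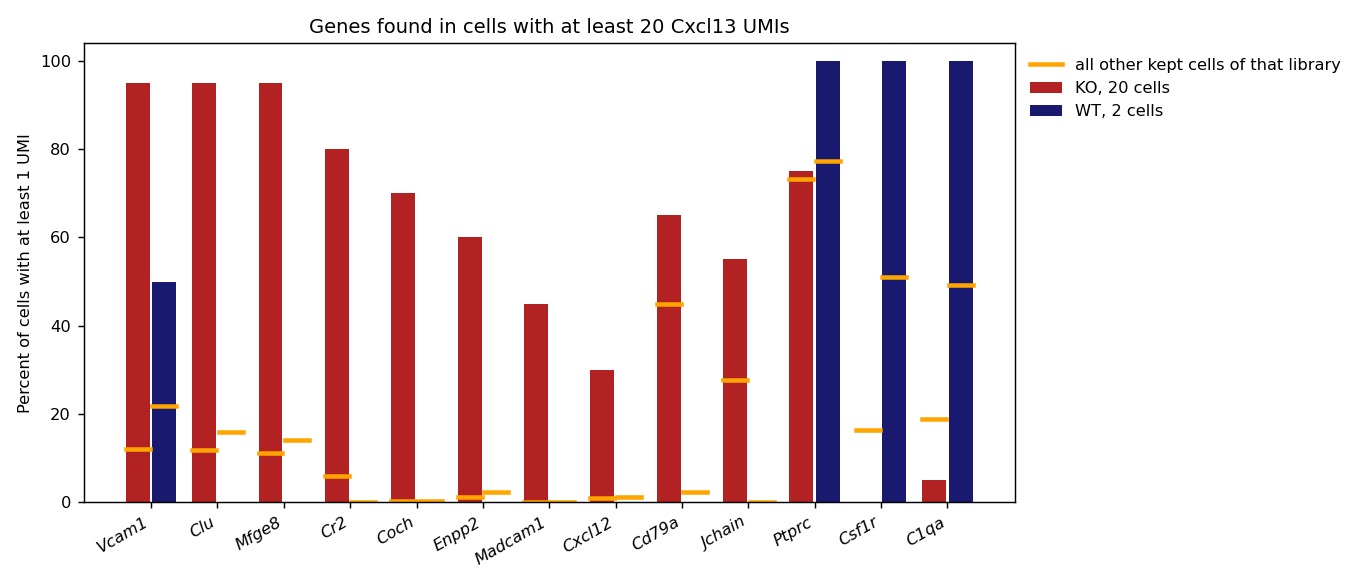
Bars give the percent of cells with at least 20 Cxcl13 UMIs (y axis; 20 KO cells, left bar, and 2 WT cells, right bar) that carry each gene, and orange lines give all other kept cells of that library. Cr2 is in 80% of the KO cells, against 5.95% of the other KO cells, and C1qa in 100% of the WT cells.

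Within the gated classes Cxcl13 was mostly higher in KO, but single cells decided several values. In fibroblasts it had 57 UMIs (40.3 CPM) in KO and 7 UMIs (2.68 CPM) in WT, log2 3.91 (2.78 to 5.29), with 36 of the 57 in 1 cell. In dendritic cells there were 56 UMIs in KO and 1 in WT, of which 52 were in 1 KO cell. In T cells there were 44 in KO and 0 in WT, at least 10.3-fold higher, and 27 of the 44 were in 1 cell with follicular helper genes. In 1832 KO T cells with no UMI of a B marker 11 remained, against 0 in 1292 WT cells. Macrophages had 55 UMIs (3.90 CPM) in KO and 122 UMIs (2.67 CPM) in WT, log2 0.55 (0.06 to 1.02), and 119 of the WT UMIs were in the 2 cells. Over all cells the ratio without each library's top cell was 4.91 (4.55 to 5.29).

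Ccl21a, which lines lymphatic vessels and the T zone, lay in fewer cells still. A minimum of 20 UMIs picked 6 KO cells, with 538, 217, 203, 165, 48 and 38 UMIs, and 1 WT cell, with 525 UMIs. They held 98.2% of the KO and 98.1% of the WT UMIs. Of the 6 KO cells 4 passed as endothelial, 1 as fibroblast and 1 as mixed, and the WT cell passed as endothelial. The whole endothelial class held only 5 KO and 4 WT cells. The mixed cell was the richest and had 50762 UMIs of all genes, 51 of them of the tumour marker Rhox5 and 18 of Krt8. Mmrn1, a lymphatic vessel gene, was in 5 of the KO cells and in the WT cell, and Prox1, the lymphatic identity factor, in 4 and in 1. Lyve1 and Flt4, a hyaluronan receptor and a growth factor receptor of lymphatics, were each in 3 KO cells and in the WT cell. Without each library's top cell, 693 UMIs were left in KO and 10 in WT, log2 6.28 (5.39 to 7.35), against 1.37 with it. In fibroblasts it had 51 UMIs in KO and 0 in WT, and 48 of the 51 were in 1 cell. The near-identical copies Ccl21b and Ccl21d had 0 and 0 UMIs in KO and 0 and 1 in WT; the Ccl21b transcript matched Ccl21a at 400 of 402 aligned bases, so reads from the matching stretches cannot be assigned to 1 copy. Ccl21d was not aligned.

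**Figure D3:**
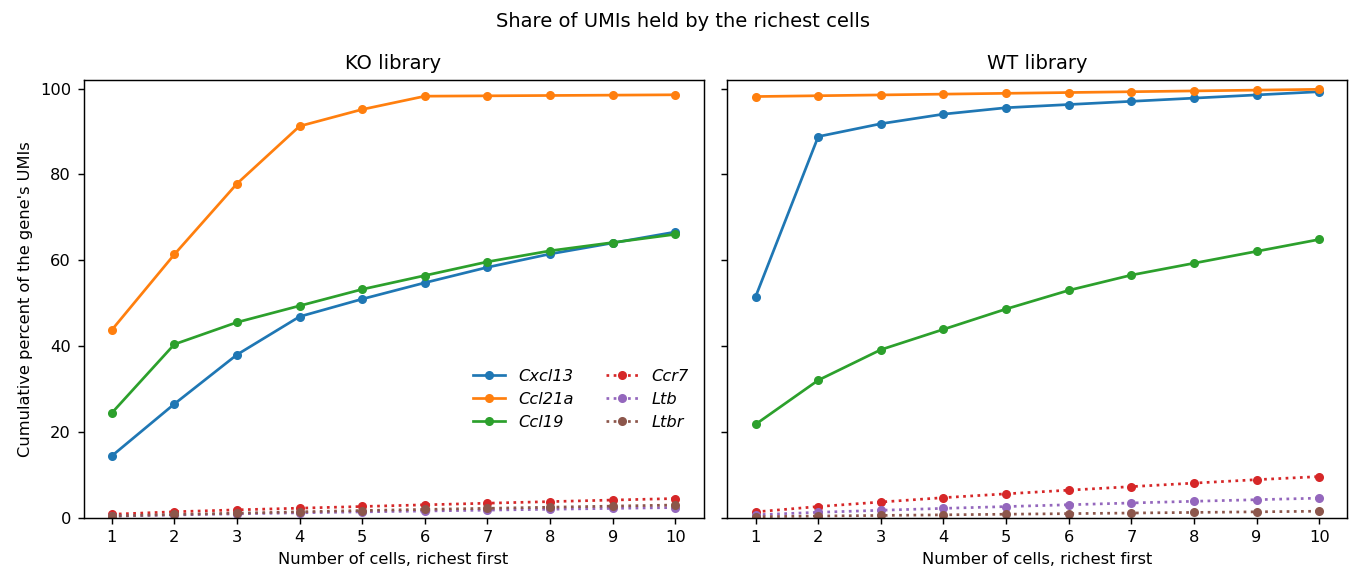
Lines give the cumulative percent of a gene's UMIs (y axis) in the 1 to 10 cells richest in it (x axis), KO library left and WT library right. The top 2 cells hold 26.5% of Cxcl13 UMIs in KO and 88.8% in WT, while the top 10 hold 4.45% and 9.56% of Ccr7.

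Ccl19 was a fibroblast gene in both libraries. Fibroblasts held 70.5% of its UMIs in KO and 96.0% in WT, at 77.7 CPM (63.9 to 93.7) and 92.9 CPM (81.6 to 105), log2 -0.26 (-0.60 to 0.07). The interval includes 0. Among cells with at least 3 UMIs, 8 of 11 in KO and 18 of 19 in WT were fibroblasts, and 10 of 11 KO and 10 of 19 WT cells carried Vcam1. Cxcl12, a chemokine of reticular stroma, was in 7 of the 11 KO cells and 18 of the 19 WT cells, and 213 of its 413 UMIs in the KO cells were in 1 cell. Cxcl13 shared 6 of the 11 KO cells and 2 of the 19 WT cells. Fibroblasts without Y-linked UMIs, 145 in KO and 162 in WT, gave 0.10 (-0.27 to 0.46). UMIs of Y-linked genes, seen in tumour cells at 39.9 CPM in KO and 34.6 CPM in WT, were at 15.5 CPM in KO and 45.9 CPM in WT fibroblasts. The pseudogene row Ccl19-ps2 held 159 UMIs in KO and 322 in WT beside 156 and 253 of Ccl19, and both rows summed gave -0.62 (-0.86 to -0.38) in fibroblasts and -0.38 (-0.64 to -0.12) in those without Y-linked UMIs. The level of Ccl19 is therefore uncertain.

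Madcam1 had 8 KO cells and 0 WT cells with at least 2 UMIs, holding 44 of its 59 KO UMIs. Of these, 7 carried Cxcl13, 8 carried Vcam1, 8 Mfge8 and 6 Cr2. Cdh5, the vascular cadherin, was in 0 of the 8. By lineage they were 2 dendritic, 1 B, 1 fibroblast, 1 macrophage, 1 plasma, 1 mixed and 1 unplaced cell. No gate was made for follicular dendritic cells, so this spread does not show that several cell kinds held the gene. The 20 KO cells with at least 20 Cxcl13 UMIs held 40 of the 59 KO Madcam1 UMIs, in 9 cells.

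Ccr7, which guides T cells and dendritic cells, was highest in dendritic cells and lower over that class in KO, but higher in KO T cells. Dendritic cells had 4893 UMIs (1736 CPM) in KO and 8138 UMIs (2138 CPM) in WT, log2 -0.30 (-0.35 to -0.25). T cells had 5777 UMIs (510 CPM) in KO and 1757 UMIs (221 CPM) in WT, log2 1.21 (1.13 to 1.29). Among the 6 classes compared, next came NK cells, 29 UMIs (39.03 CPM) in KO and 108 (60.6 CPM) in WT, log2 -0.63 (-1.28 to -0.03), and macrophages, 391 (27.7 CPM) and 714 (15.6 CPM), log2 0.83 (0.65 to 1.01), and 0.45 (0.22 to 0.67) in macrophages with no B marker UMI. The intervals of KO NK cells and KO macrophages overlap. Fibroblasts were at 11.3 and 5.73 CPM and tumour cells at 4.62 CPM (3.88 to 5.47) and 2.39 CPM (1.87 to 2.997). Of the classes too small in WT, B cells stood at 384 CPM in KO, below T cells, and at 481 CPM in the 13 WT cells. Plasmacytoid dendritic cells, 107 in KO and 23 in WT, had 108 UMIs and 8, with 52 of the 108 in 1 cell.

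**Figure D4:**
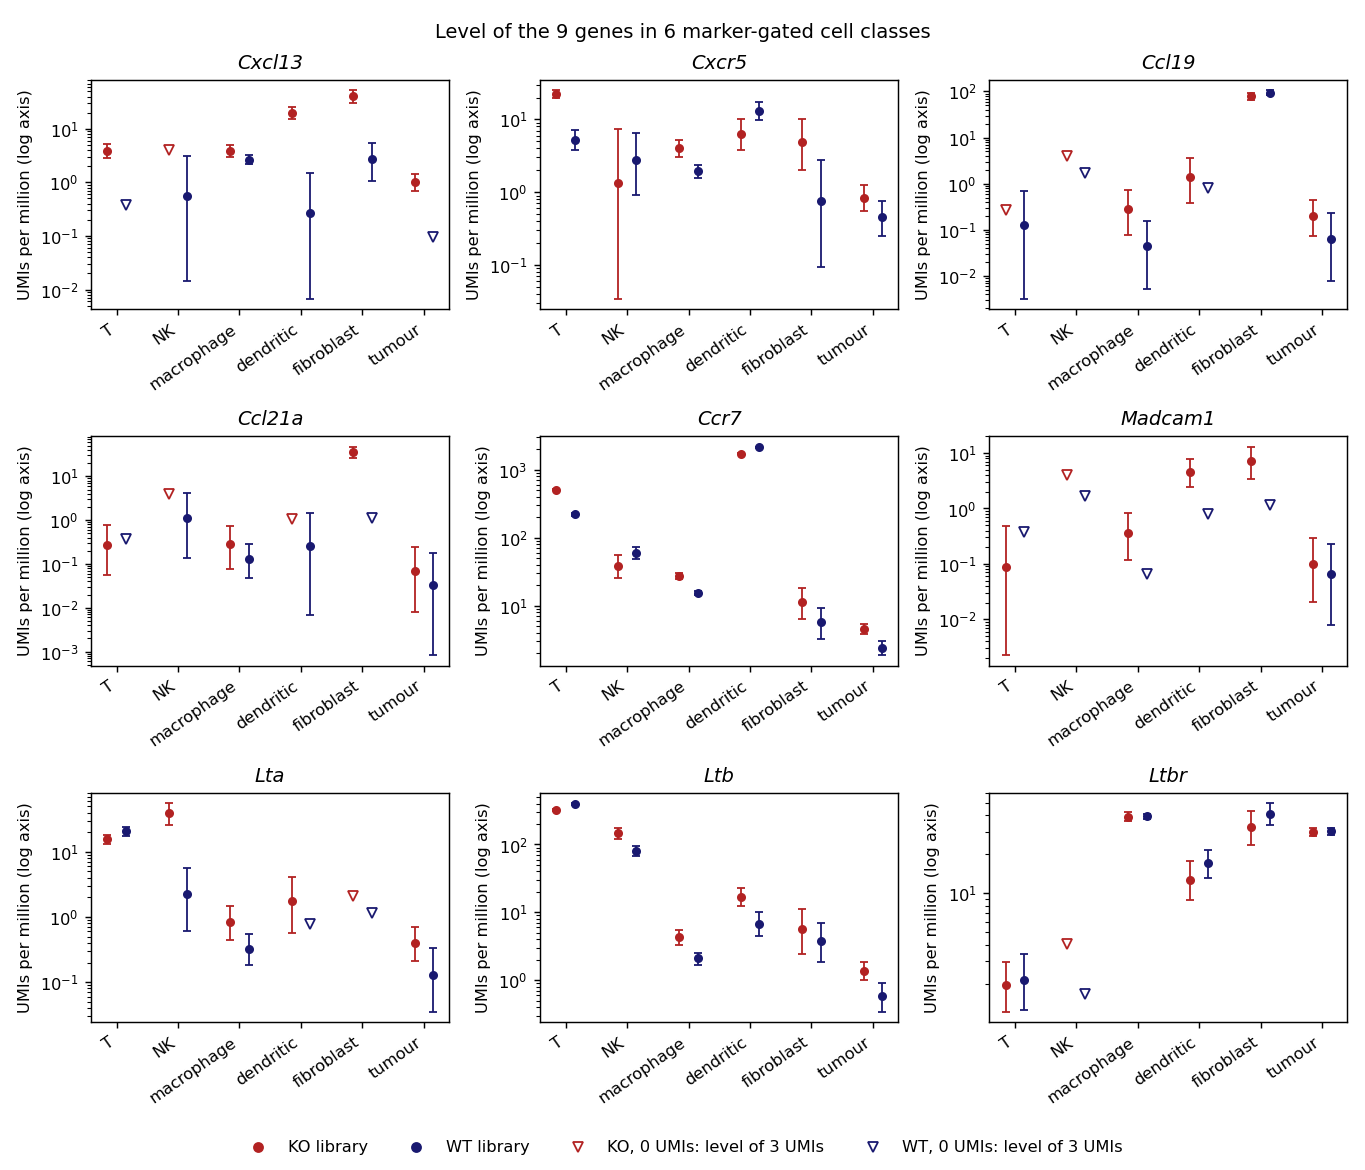
Points give the CPM of each gene (log axis) in 6 classes, KO left of WT, with 95% exact Poisson intervals, and open triangles give the level of 3 UMIs where none was found. Ccr7 is at 1736 CPM in KO and 2138 CPM in WT dendritic cells and at 510 CPM and 221 CPM in T cells, while Ltbr is at 29.8 and 30.1 CPM in tumour cells.

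In cells the share with a Ccr7 UMI was 50.1% of KO and 22.5% of WT T cells, at median depths of 4180 and 5230 UMIs. With each cell thinned to 2000 UMIs, leaving 1840 KO and 1270 WT cells, it was 41.1% and 14.4%. Tumour cells, which are not known for the gene, had 1.32% and 0.589% after thinning and 9.18% and 4.41% before. The T cells of the KO library therefore carried the gene more often at the same depth.

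Ccr7 was higher in KO in 4 of 4 T subsets of at least 30 cells in both libraries, from 0.50 to 2.39. CD8 T cells, 812 in KO and 477 in WT, stood at 452 CPM and 319 CPM, log2 0.50 (0.39 to 0.61). CD4 T cells without follicular helper genes, 425 and 151, stood at 662 CPM and 298 CPM, log2 1.15 (0.94 to 1.37). T cells outside the CD4, CD8 and Foxp3 subsets, 867 and 556, stood at 511 CPM and 97.3 CPM, log2 2.39 (2.21 to 2.57). T cells with Foxp3, the regulatory T-cell factor, stood at 551 CPM and 235 CPM, log2 1.23 (0.999 to 1.46), over 136 cells in each library. B markers were found in T cells, 5 of 5 in KO at 66.0 CPM summed and 2 of 5 in WT at 4.40 CPM, with the other 3 at 0. T cells without a B marker UMI gave 1.16 (1.08 to 1.24).

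Mature dendritic cells, which move to the T zone along CCR7 ligands, were 196 in KO and 203 in WT. They stood at 3250 CPM and 4113 CPM of Ccr7, log2 -0.34 (-0.39 to -0.29), and 94.9% and 95.6% carried a UMI. The class with Cd209a or Clec10a, 68 and 125 cells, was at 333 CPM and 594 CPM, log2 -0.83 (-1.06 to -0.61). The class with Xcr1 or Clec9a, 34 and 35 cells, went the other way, 375 CPM and 273 CPM, log2 0.46 (0.15 to 0.78), with 62 of 191 KO and 65 of 152 WT UMIs in 1 cell each. Dendritic cells in none of these classes, 41 and 20, were also higher in KO, 501 CPM and 85.4 CPM, log2 2.55 (1.79 to 3.42), with 13 of the 15 WT UMIs in 1 cell.

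In the KO B cells, which had no WT counterpart of size, the CPM of Ccr7 and of Cxcr5 depended on the subset. Cells with Ighd and Fcer2a, genes of resting follicular B cells, numbered 721 and held Ccr7 at 531 CPM (508 to 556) and Cxcr5 at 142 CPM (130.2 to 155). Cells with germinal-centre genes numbered 378 and held Ccr7 at 31.7 CPM (26.0 to 38.4) and Cxcr5 at 82.6 CPM (73.2 to 93.0). The CPM intervals do not overlap for either gene. Median depth was 4435 UMIs with Ighd and Fcer2a and 8013.5 UMIs with germinal-centre genes. Cxcr5 had 504 UMIs in the 721 cells and 276 in the 378 cells. Its lower CPM in the germinal-centre cells is therefore not a lower count per cell. Ltb was at 143 CPM and 160.2 CPM, and Lta at 7.34 CPM (4.80 to 10.8) and 20.96 CPM (16.3 to 26.5). Ccr7 UMIs were found in 84.2% of Cxcr5-positive and 71.2% of Cxcr5-negative resting-gene cells, and in 15.7% and 10.2% of germinal-centre cells, with depth not matched in these shares. The 13 WT B cells held 15 Cxcr5, 40 Ccr7 and 16 Ltb UMIs, too few for a ratio.

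Cxcr5 was higher in KO T cells as well, 251 UMIs (22.2 CPM) against 42 UMIs (5.28 CPM) in WT, log2 2.07 (1.59 to 2.58). After thinning, 4.35% of KO and 0.63% of WT T cells had a UMI, while tumour cells had 0.162% and 0.0979%. Foxp3 T cells held 30 UMIs in KO and 0 in WT, at least 11.5-fold higher. CD4 T cells with follicular helper genes were 43 in KO and 2 in WT and held 29 and 0. Of the 4 larger subsets 4 were higher in KO, among them CD8 T cells, at 16.1 CPM in KO and 4.10 CPM in WT, log2 1.98 (1.11 to 2.96). T cells without a B marker UMI gave 2.05 (1.55 to 2.58). In dendritic cells Cxcr5 was lower, 18 UMIs in KO and 50 in WT, log2 -1.04 (-1.91 to -0.24). In macrophages the ratio was 1.06 (0.55 to 1.55), and 0.47 (-0.21 to 1.10) in those with no B marker UMI.

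**Figure D5:**
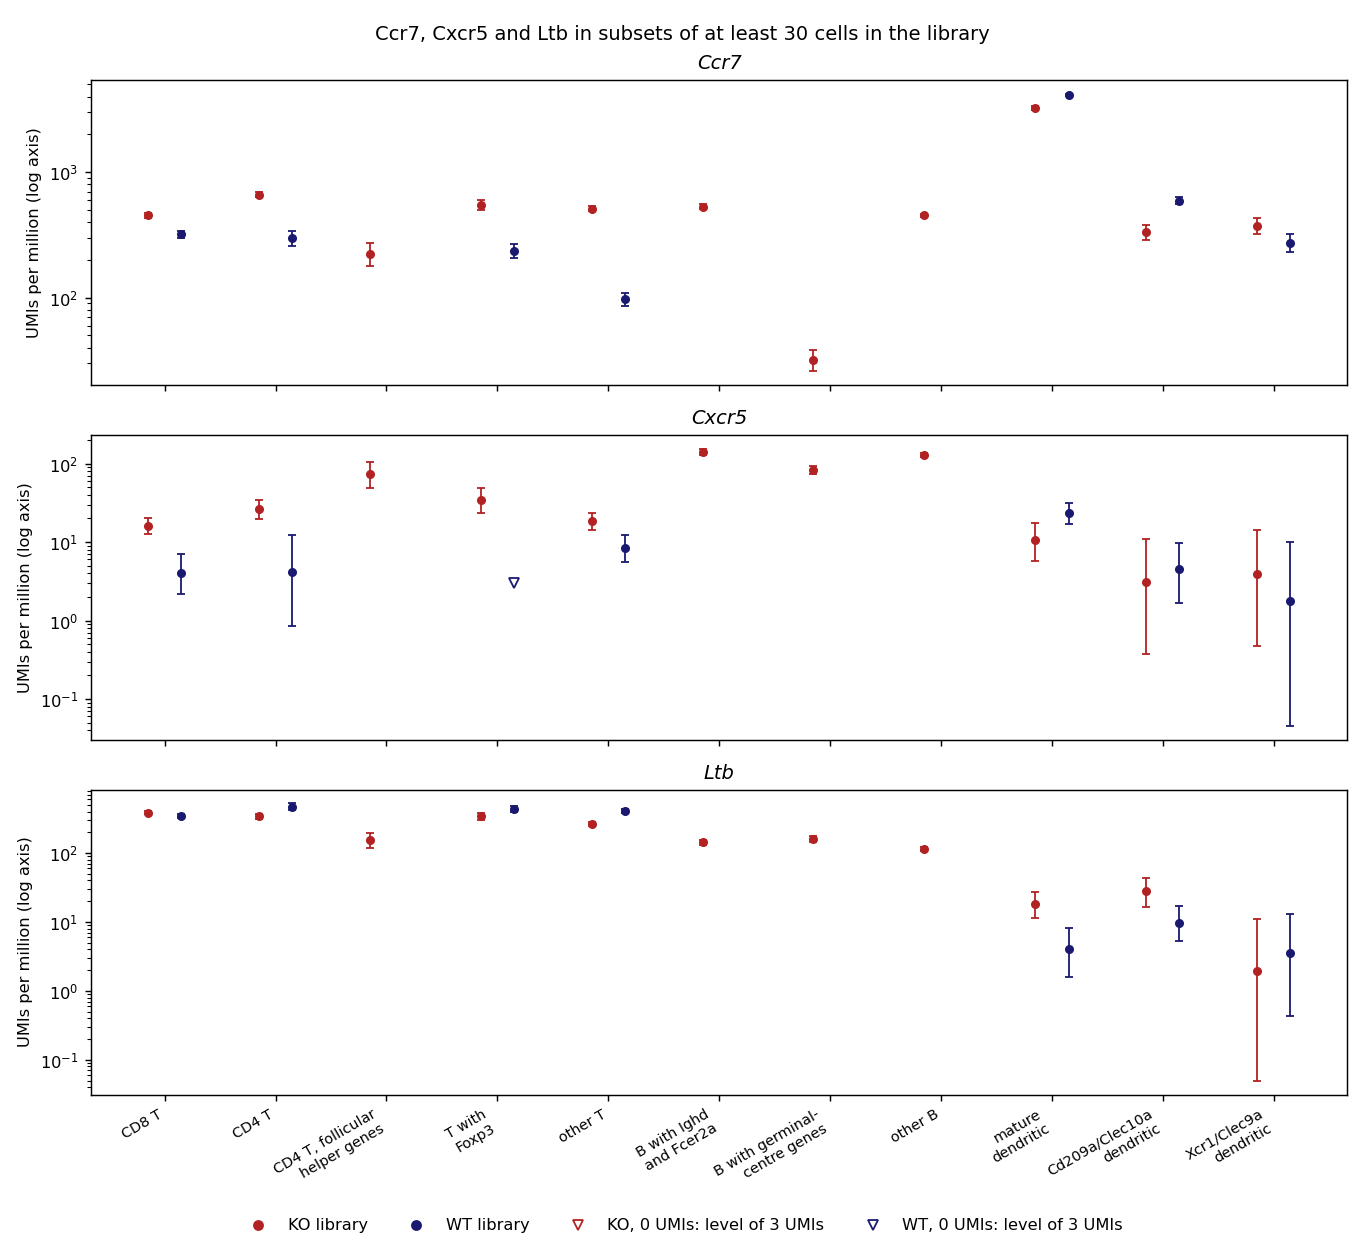
Points give the CPM (log axis) of Ccr7, Cxcr5 and Ltb in T, B and dendritic subsets of at least 30 cells, KO left of WT, with 95% exact Poisson intervals, and open triangles give the level of 3 UMIs where none was found. Ccr7 in KO B cells is 531 CPM with Ighd and Fcer2a and 31.7 CPM with germinal-centre genes.

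Ltb, the membrane anchor of lymphotoxin, was slightly lower in KO T cells, which differs from its direction over all cells. T cells had 3669 UMIs (324 CPM) in KO and 3124 UMIs (393 CPM) in WT, log2 -0.28 (-0.35 to -0.21). Of 4 T subsets 3 were lower in KO and 1 higher, from -0.65 to 0.15, the higher being CD8 T cells, 0.15 (0.04 to 0.26), so the direction of Ltb depended on the T cells included. Dendritic cells had 48 UMIs (17.0 CPM) in KO and 26 (6.83 CPM) in WT, log2 1.32 (0.60 to 2.07), and NK cells 108 and 145, log2 0.84 (0.46 to 1.21). B markers were at 39.7 CPM in KO and 0.263 CPM in WT dendritic cells, and their part in this was not tested.

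Lta, the soluble partner, was low. T cells had 176 UMIs (15.5 CPM) in KO and 165 UMIs (20.7 CPM) in WT, log2 -0.42 (-0.73 to -0.10), and -0.09 (-0.44 to 0.26) without B marker UMIs. In T cells with Foxp3 it had 19 UMIs in KO and 1 in WT, log2 4.45 (1.79 to 9.82), and in T cells outside the CD4, CD8 and Foxp3 subsets 41 and 103, log2 -1.59 (-2.14 to -1.05). NK cells had 29 UMIs in KO and 4 in WT, and 23 of the 29 were in 1 cell. Ltb UMIs were in 81.1% of KO and 86.7% of WT T cells with Lta, against 53.0% of KO and 71.7% of WT T cells without it.

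Ltbr, the receptor, was level in CPM between the libraries in macrophages and tumour cells. Macrophages had 552 UMIs (39.2 CPM) in KO and 1804 UMIs (39.4 CPM) in WT, log2 -0.01 (-0.15 to 0.13). Tumour cells had 882 (29.8 CPM) and 932 (30.1 CPM), log2 -0.01 (-0.15 to 0.12). Fibroblasts had 46 (32.5 CPM) and 108 (41.3 CPM), log2 -0.35 (-0.88 to 0.17), and dendritic cells 36 (12.8 CPM) and 65 (17.1 CPM), log2 -0.42 (-1.05 to 0.19). T cells had less, with 22 (1.94 CPM) and 17 (2.14 CPM), and NK cells had 0 and 0. In the WT library the fibroblast and macrophage intervals overlap. The intervals of the ratio include 0 in macrophages, tumour cells, fibroblasts and dendritic cells. Fibroblasts were at -0.47 (-0.86 to -0.09) with mixed cells added and at -0.30 (-0.91 to 0.29) without Y-linked UMIs. Mature dendritic cells had 9 UMIs in KO and 31 in WT, log2 -1.39 (-2.65 to -0.28). The subset with Cd209a or Clec10a was at -0.16, that with Xcr1 or Clec9a at 0.32 and the remaining dendritic cells at 1.09, with intervals that include 0. Over all kept cells, where the gene was lower in KO, macrophages were 13.9% of KO and 49.7% of WT cells.

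Within classes, the members past the 2-fold threshold were as follows, among members with at least 20 UMIs. In T cells 3 of 6 were higher in KO (Cxcl13, Cxcr5, Ccr7) and 0 lower, while 3.6% of 12811 genes were higher and 5.78% lower. In macrophages 3 of 6 were higher (Cxcr5, Lta, Ltb) and 0 lower, beside 3.2% and 2.48%. B markers, 5 of 5 found in each library, were at 52.4 CPM in KO and 4.96 CPM in WT macrophages. In macrophages with no B marker UMI, Cxcr5 was at 0.47 and Ltb at 0.81, both under 2-fold, and Lta at 1.50. In dendritic cells 2 of 5 were higher (Cxcl13, Ltb) and 1 lower (Cxcr5), beside 4.38% and 3.45%. In fibroblasts 2 of 5 were higher (Cxcl13, Ccl21a) and 0 lower, beside 3.51% and 5.65%. In tumour cells 2 of 5 were higher (Cxcl13, Ltb) and 0 lower, beside 2.41% and 3.39%. In NK cells 1 of 3 (Lta) was higher and 0 lower, beside 2.23% and 4.71%. The 20 UMIs were summed over both libraries, so a member at 0 in WT could only count as higher. Cxcl13 had 44 KO and 0 WT UMIs in T cells and 30 and 0 in tumour cells. Ccl21a had 51 and 0 in fibroblasts. Members with few WT UMIs also reached 20 only through KO: Cxcl13 with 56 and 1 in dendritic cells and 57 and 7 in fibroblasts, and Lta with 29 and 4 in NK cells. These counts and the medians that follow are therefore descriptions only. The median log2 over the members was 0.53 in T cells, 0.84 in NK cells, 0.94 in macrophages, -0.30 in dendritic cells, 0.98 in fibroblasts and 0.95 in tumour cells. Over all genes it lay between -0.11 and -0.01.

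For a list of 45 other lymphoid tissue genes the median by class lay between -0.25 in T cells and 0.16 in tumour cells. Pairs of counts below are UMIs in KO and in WT, not scaled for the size of the class. In T cells 3 of 34 were at least 2-fold higher and 3 lower. Il21, a follicular helper cytokine, had 47 UMIs in KO and 1 in WT, Tnfrsf13c, the BAFF receptor of B cells, 70 and 9, and S1pr1, the exit receptor, 1687 and 560, log2 1.08 (0.94 to 1.22). Ackr3 had 4 and 20, Pdpn 35 and 65, and Tnfsf14 37 and 67. In macrophages 4 of 33 were higher and 1 lower, with Tnfrsf13c at 43 and 1 and Ccr6 at 32 and 4. Ch25h, which makes an oxysterol for B-cell positioning, was at 73 and 96, log2 1.30 (0.84 to 1.76). Ackr3 was at 8 and 51, log2 -0.97, Icosl at 68 and 368, log2 -0.74, and Ccl17 at 12 and 392, log2 -3.33. Igkc, an antibody gene, was at 561 CPM in KO and 0.393 CPM in WT macrophages beside the B markers given above, and the part of B RNA in these values was not tested. In dendritic cells 2 of 27 were higher and 2 lower. Vcam1 had 120 and 13 UMIs, Tnfsf11 22 and 10 and Icos 28 and 20. The chemokine Ccl17 had 446 and 1305, log2 -1.12 (-1.27 to -0.96), and Pdpn 17 and 46. The chemokine Ccl22 had 1227 and 2881, log2 -0.80 (-0.90 to -0.70). Ccl22 is itself a marker of the dendritic gate, so its level there depends on the gating.

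In fibroblasts 2 of 22 listed genes were higher and 2 lower. Cxcl12 had 937 UMIs (662 CPM) in KO and 465 (178 CPM) in WT, log2 1.90 (1.74 to 2.06), with 213 of the 937 in 1 cell. Its ratio was not repeated in fibroblasts without Y-linked UMIs. Tnfsf13b, the B-cell survival factor BAFF, had 29 and 21, log2 1.35 (0.49 to 2.24). Cd40 had 20 and 24, log2 0.62 (-0.31 to 1.54). Icos had 2 and 21, Tnfrsf11a 3 and 20 and Traf3 83 and 290, log2 -0.92 (-1.29 to -0.56). In NK cells, with 743041 UMIs of all genes in KO and 1782211 in WT, 3 of 19 were higher and 3 lower. Tnfsf11 was at 33 and 20, log2 1.98, Il7r at 42 and 41, log2 1.30, and Gpr183 at 80 and 94, log2 1.03. Map3k14 was at 42 and 210, log2 -1.06, Pdpn at 0 and 22 and Tnfsf14 at 2 and 18, log2 -1.91. In tumour cells 4 of 31 were higher and 1 lower, with Tnfrsf13c at 20 and 1, Ccr6 at 17 and 4, Gpr183 at 90 and 25, Traf3 at 1736 and 2471, Tnfrsf11a at 78 and 117 and Ccl22 at 11 and 26. B markers were at 27.9 CPM in KO and 10.2 CPM in WT tumour cells, at 105 and 6.50 CPM in fibroblasts and at 34.99 and 1.12 CPM in NK cells, and their part in these values was not tested. Over all kept cells 9 of 41 were higher and 6 lower: Cr2 had 1095 UMIs in KO and 1 in WT, Tnfrsf13c 5550 and 84, and Ccr6 3047 and 171, while Tnfrsf11a had 1812 and 5868, Tnfsf14 202 and 655, and Ccl17 616 and 2005.

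Genes with the most similar pattern were found over 12 points, 6 classes in 2 libraries, among 13750 genes, by Pearson correlation of log2(CPM + 1). The points share 2 libraries and their depth, so this is a description. Ltbr was nearest to Dstn, Vim and Ralb (0.99 each) and Ltb to Nmrk1, Camk4 and S1pr4 (0.98 each). Ccr7 was nearest to Dthd1, Mif4gd and A430035B10Rik (0.96, 0.96 and 0.95), Lta to Ccl1, Ttn and Bik (0.96 each), and Ccl19 to Nfib, Sulf1 and Adamtsl1 (0.999, 0.998 and 0.997). The points held only 17.3% of the Cxcl13 UMIs, with Pcdh15, Mcpt4 and Mdk nearest (0.88, 0.86 and 0.86), 17.9% of the Cxcr5 UMIs, with Gm11110, Gm15503 and Ccr6 (0.89, 0.88 and 0.88), and 3.96% of the Ccl21a UMIs, with Hba-a2, Hbb-bt and Gm9564 (0.98, 0.98 and 0.97). Madcam1 had under 200 UMIs and was not compared.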

How the data were processed

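Per the labels' protocols both libraries were made with a 10x Chromium 3′ kit. The deposited matrices hold whole UMI counts for each gene in each barcode, which the authors did not normalize. The submitters' processing notes name Cell Ranger 6.0.1, Seurat 4.0.3 and 4.0.4 and mm10. Cell Ranger 8.0.1 stands in the matrices, per the file headers. No release of the gene annotation is named, so coordinates come from GENCODE M21 and sequences from RefSeq.

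A cell joined a lineage with at least 3 UMIs of at least 2 of its markers, if no other lineage had 1 part in 3 of the top lineage's UMIs. Mixed-lineage cells were set apart, which stands in for doublet removal, and no doublet caller was run. For each class and library UMIs were added up and given as CPM. The 95% intervals are exact Poisson for levels, Clopper-Pearson for shares and conditional binomial for ratios, checked on simulated counts. A side with 0 UMIs took a floor of 3 UMIs over the class. Shares were also computed in cells thinned to 2000 UMIs. Python 3.11.15, numpy 2.4.6, scipy 1.17.1 and pandas 2.3.3 were used. There was no test across genes, because each genotype is 1 library. Beyond the 9 members, the text names the 3 most correlated genes per member and the 3 most extreme listed genes per direction in each class.

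The members, lists and lineage minimum were chosen with earlier results of these data known. A few genes of the lists are not reported here, and subsets and counts were made without them. The alternatives were all barcodes, a doubled marker minimum, mixed cells given to their top lineage, the 10% of cells with most UMIs left out, the top cell of a gene left out, mean UMIs per cell, thinning, and a pseudocount of 10 in place of 1. 4 settings were added after the values were seen.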

Additional observations from a re-analysis of the deposited data

Results flagged for a closer look

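For 4 genes the KO over WT direction was opposite in 2 cell classes; the difference between classes was not tested. Ccr7 was at log2 1.21 in T cells and -0.63 in NK cells, where 29 KO UMIs stand against 108 WT UMIs. Ltb was at 1.32 in dendritic cells and -0.28 in T cells. Lta was at 4.12 in NK cells, with 23 of the 29 KO UMIs in 1 cell, and at -0.42 in T cells. Cxcr5 was at 2.69 in fibroblasts, from 7 KO and 2 WT UMIs, and at -1.04 in dendritic cells, from 18 and 50.

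Ccl19-ps2, a row outside the 9 genes, held 159 UMIs in the KO library and 322 in the WT library. In the KO library 54 cells carried it and 54 carried Ccl19, with 21 in common. In the WT library 75 and 57 cells did, with 39 in common. Whether its reads came from Ccl19 was not tested.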

How the results depend on the processing

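Of 133 values under other settings, for 19 results and 11 settings, 83 lay within the counting interval of the reported log2 ratio, 46 outside it with the same direction, and 4 outside it with the other direction. Each cause was not tested. Ccr7 in T cells was 1.49 without the 10% of cells with the most UMIs, 0.93 as mean UMIs per cell and 1.45 after thinning. Ccr7 in dendritic cells was -0.20 with the doubled marker minimum, -0.24 with mixed cells added, -0.36 without the top 10% and -0.56 per cell. Ltb in T cells was -0.56 per cell and -0.38 after thinning, and Cxcr5 in T cells 2.92 after thinning. Ltbr in macrophages was -0.25 per cell. Cxcl13 over all kept cells was 3.53 without the top 10%, 4.91 without the top cell of each library and 3.55 per cell. Ccl19 in fibroblasts was -0.98 without the top 10%, -0.73 per cell, -0.62 with Ccl19-ps2 added, and had the other direction at 0.32 with mixed cells added and 0.10 without Y-linked UMIs. The other reversals were Ccr7 in NK cells, 0.75 with mixed cells added, and Ltbr in tumour cells, 0.29 after thinning. With a pseudocount of 10 in place of 1, the nearest genes kept were 2 of 3 for Cxcl13, Ccl21a and Ccr7, 1 for Cxcr5 and Lta, and 0 for Ccl19, Ltb and Ltbr. No paired analysis was possible because each genotype is 1 library.

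The ratios cannot carry more than 1 library a side. WT cells are deeper, so values per cell lean towards WT. Cxcl13, Ccl21a, Madcam1 and Lta in NK cells rest on a few cells, and B cells have no WT counterpart of size.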
